A study of Apis mellifera with 10 samples.

Results

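Hexamerins, vitellogenin and other proteins of the hemolymph, the insect blood, were followed as transcripts in the antennae of newly emerged honey bees (Apis mellifera). The 7 genes were chosen by their symbols in the RefSeq gene table of assembly Amel_HAv3.1 and found in the count tables by chromosome, start and end, among 12332 bee genes. They are the 4 hexamerin genes Hex70a, HEX70b, Hex70c and Hex110, the lipoprotein gene Vhdl, the vitellogenin gene Vg and the transferrin gene Tsf1. All 10 libraries were used: 5 from adults injected as embryos with a CRISPR ribonucleoprotein against orco (orco_KO, replicates 3, 5, 9, 11 and 12) and 5 from adults injected as embryos with buffer (control, replicates 3, 4, 5, 6 and 7). Both groups were raised in the laboratory, and antennae were taken within 24 hours of adult emergence. The labels give no sex or caste, and they leave unsaid whether 1 library is 1 bee. The p-values therefore cover library-to-library spread, which may be technical. Nor do they say how completely the injected embryos were edited.

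Hexamerins are storage proteins that the insect fat body secretes in the larva and that supply amino acids while the adult body is built. Vitellogenin is the precursor of egg yolk, and in worker bees it is also a circulating store tied to juvenile hormone and to nursing. Transferrin is the secreted iron carrier of insect hemolymph, and the very high density lipoprotein of honey bees is known from larval hemolymph. The main source of these proteins is the fat body rather than the antenna.

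Total counts over bee genes ranged from 8577416 to 23453690 per library, and values are given as CPM, the usual unit of counts relative to library size, with library sizes scaled by TMM, the scaling of edgeR. The targeted gene, listed as Or2, lay between 306 and 492 CPM in controls and between 14.2 and 36.1 CPM in orco_KO, so every library matched its label. Of 36 antennal marker symbols, 27 matched a gene (odorant receptors, odorant binding proteins and chemosensory proteins). Each of the 27 had reads in some library, and 23 had enough reads to be tested. Control replicates 6 and 7, the deepest libraries, were apart from the remaining controls. On the first principal component they were at 44.78 and 48.95, the other controls at 15.15 to 26.99 and orco_KO at -52.55 to -15.39. The fold changes of the 4 members that could be tested are therefore also given without these 2 libraries.

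Relative to gene span, introns included, Tsf1 ranked near the top of all bee genes, and the hexamerins ranked in the lower part. This rank depends on gene length and is not transcript abundance. By plain CPM, Tsf1 averaged 238 in controls, far below genes such as Mblk-1 (7470 CPM). Per kilobase of gene span, Tsf1 averaged 77.3 ± 27.1 CPM over the controls and 123 ± 31.0 CPM over the orco_KO libraries (n = 5 each, SD), above 99.3% of all bee genes by its mean over the 10 libraries. Vg followed with 5.66 ± 6.07 and 6.90 ± 3.66 CPM per kilobase, above 78.8% of bee genes. The others were far lower. Hex110 had 0.166 ± 0.135 and 1.07 ± 1.54, Vhdl 0.272 ± 0.265 and 0.195 ± 0.193, and Hex70a 0.126 ± 0.255 and 0.105 ± 0.0654 CPM per kilobase in controls and orco_KO. HEX70b, at 0.0852 ± 0.0456 and 0.0637 ± 0.0774, and Hex70c, at 0.00320 ± 0.00716 and 0.0205 ± 0.0458 CPM per kilobase, were the least abundant members. Hex70c was above 9.97% of bee genes.

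Only the step from Tsf1 to Vg was wider than the spread among libraries. Tsf1 was above Vg in 10 of 10 libraries, the ranges did not overlap, and the mean level per kilobase was 16.0-fold apart. Vg was above Hex110 in 10 of 10 libraries, although the ranges overlapped: Hex110 in orco_KO replicates 3 (3.77 CPM per kilobase) and 9 (0.908) exceeded Vg in control replicate 6 (0.790). Hex110 exceeded Vhdl in 7 of 10 libraries, Vhdl exceeded Hex70a in 9, Hex70a exceeded HEX70b in 4 and HEX70b exceeded Hex70c in 7, with overlapping ranges in each case. Tsf1 alone made up 78.4% to 97.2% of the summed CPM of all 7 genes in a library.

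**Figure D1:**
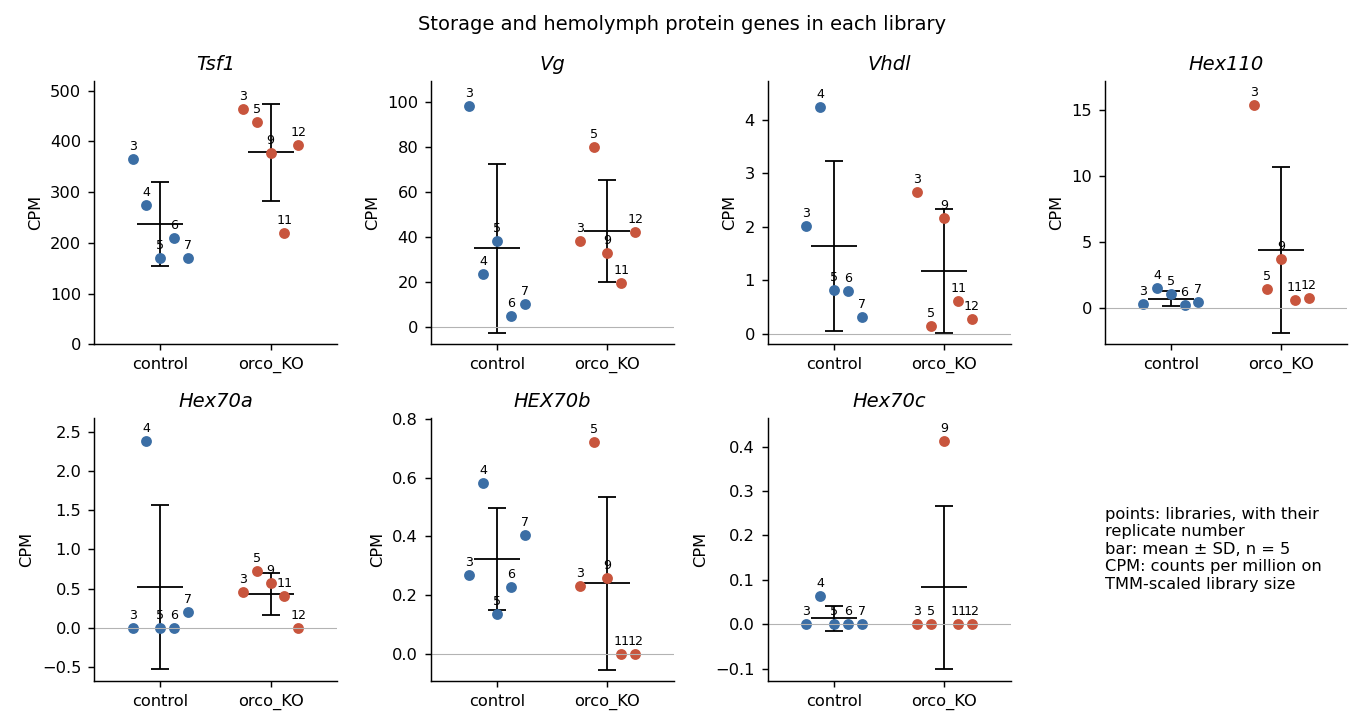
CPM of each of the 7 genes (vertical axes, linear, a scale per gene) in 5 control libraries (blue) and 5 orco_KO libraries (red); points are libraries with their replicate number, bars are mean ± SD. The groups overlap for every gene: Tsf1 lies above all controls in 4 of 5 orco_KO libraries, Hex110 is highest in orco_KO replicates 3 and 9, and Vg is lowest in control replicates 6 and 7.

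The hexamerin genes Hex70a, HEX70b and Hex70c were close to silent. They lie close together on the reverse strand of linkage group 8, within the 19544 bases from 11848693 to 11868236 of Amel_HAv3.1. Hex70a is at 11848693 to 11852800, HEX70b at 11855314 to 11859108 and Hex70c at 11864211 to 11868236. LOC107964857, on the forward strand, starts between HEX70b and Hex70c. HEX70b and Hex70c transcripts are known chiefly from the larva, whereas Hex70a is also known from adults. All 10 libraries together held 67 reads of Hex70a, 43 of HEX70b and 9 of Hex70c. Reads that mapped to more than 1 place were not counted, so these are minimum values if the 3 genes share sequence.

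Most of the few reads came from particular libraries. Hex70a had 37 reads in control replicate 4 and 6 in control replicate 7, and none in control replicates 3, 5 and 6. In orco_KO it had 4, 5, 11, 4 and 0 reads in replicates 3, 5, 9, 11 and 12. Control replicate 4 thus held 55.2% of all Hex70a reads, at 2.38 CPM (95% Clopper-Pearson interval 1.68 to 3.29, counting error only). In the 3 controls without reads the upper bound of the same interval was 0.14 to 0.496 CPM. Reads were found in 4 of 5 orco_KO and 2 of 5 control libraries.

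HEX70b was spread more evenly. It had 2, 9, 2, 6 and 12 reads in control replicates 3, 4, 5, 6 and 7, and 2, 5, 5, 0 and 0 reads in orco_KO replicates 3, 5, 9, 11 and 12. The counts were too small to order the libraries. Of the 9 reads of Hex70c, 8 came from orco_KO replicate 9 and 1 from control replicate 4, and the other 8 libraries had none.

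None of these 3 genes had enough reads for the fit across all genes, and no difference between the groups was detectable at these counts. Mean CPM was 0.517 ± 1.05 in controls and 0.432 ± 0.269 in orco_KO for Hex70a (SD, n = 5 each; exact permutation test, two-sided p = 0.992). For HEX70b it was 0.323 ± 0.173 against 0.242 ± 0.294 CPM (exact permutation test, two-sided p = 0.595), and for Hex70c 0.0129 ± 0.0288 against 0.0825 ± 0.184 CPM (two-sided exact p = 1). Adjusted over the 3 genes each p was 1. The smallest p that the test allows is 0.00794 for Hex70a and HEX70b, and 0.444 for Hex70c, which had reads in 2 of 10 libraries and so could not pass. The difference of Hex70a rested on control replicate 4, without which orco_KO was higher by 0.381 CPM (two-sided exact p = 0.0794), and that of Hex70c on orco_KO replicate 9.

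Genes with more reads lay on both sides of these hexamerins. LOC409353, 1027 bases from Hex70a, had 1372 reads and was counted in 10 of 10 libraries at 1.28 to 2.27 CPM per kilobase, against 0 to 0.580 for Hex70a. On the far side, beyond LOC102653693, LOC726874, 6337 bases from Hex70c, had 688 reads in 10 of 10 libraries at 0.507 to 1.51 CPM per kilobase, a range that overlaps the highest value of Hex70a. LOC107964857, which overlaps Hex70c by 38 bases on the opposite strand, and LOC102653693, which lies 3101 bases outside the hexamerins next to Hex70c, had 1 read each.

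**Figure D2:**
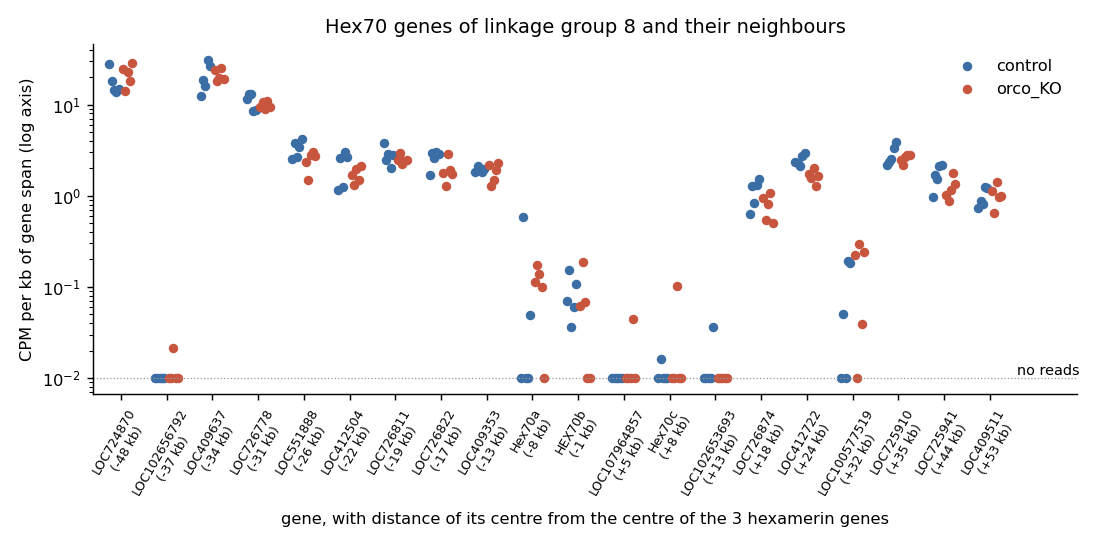
CPM per kilobase of gene span (vertical, log axis) for the 3 hexamerin genes and the genes between and around them. Genes are in order along linkage group 8, with the distance of each gene's centre from the centre of the 3. Points are libraries (blue control, red orco_KO), points on the dotted line have no reads, and genes without reads in any library are left out. Hex70a, HEX70b and Hex70c stay below 0.6 CPM per kilobase in every library, while LOC409353 and LOC726874 on either side were read in 10 of 10.

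Hex110, the hexamerin gene with the most reads, was highest in 2 orco_KO libraries. It lies on the reverse strand of linkage group 11, at 13517503 to 13521591, and encodes a larger, glutamine-rich storage hexamerin. Reads numbered 2, 23, 15, 6 and 12 in control replicates 3, 4, 5, 6 and 7, which is 0.269, 1.48, 1.02, 0.227 and 0.404 CPM. In orco_KO there were 133, 10, 72, 6 and 10 reads in replicates 3, 5, 9, 11 and 12, which is 15.4, 1.44, 3.71, 0.613 and 0.70 CPM. Replicates 3 and 9 lay above every control, and the other 3 orco_KO libraries lay within the control range.

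The spread within orco_KO was wider than counting error. The interval of replicate 3 (12.9 to 18.3 CPM, 95% Clopper-Pearson) and that of replicate 9 (2.91 to 4.68 CPM) overlapped neither each other nor those of replicates 11 and 12 (highest bound 1.33 CPM). The fitted log2 fold change was 2.67 (SE 0.863), and it missed the threshold (edgeR quasi-likelihood test, adjusted p = 0.0595, unadjusted p = 0.00812). All 5 orco_KO libraries were above the median of the controls. Without orco_KO replicate 3 the log2 fold change was 1.29 (adjusted p = 0.287), and without control replicates 6 and 7 it was 2.10 (adjusted p = 0.240). DESeq2 gave 2.71 (adjusted p = 0.0325), and edgeR also called the gene without orco_KO replicate 11 (adjusted p = 0.0355) or replicate 12 (adjusted p = 0.0382), the 2 lowest libraries of that group. With the shared replicate numbers as a block edgeR called it too (adjusted p = 0.00439). That fit held only 4 libraries, orco_KO replicate 3 among them, and the numbers are not taken as pairs.

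The nearest gene to Hex110 is TpnCIIa, a troponin C gene of muscle, which ends on the opposite strand 103 bases away. For TpnCIIa the controls averaged 25.3 ± 12.2 CPM and the orco_KO libraries 44.5 ± 14.4 CPM (n = 5 each, SD), a log2 difference of 0.81 that did not pass (edgeR adjusted p = 0.124). Counting used the strand, so reads of one gene were not assigned to the other. On the other side LOC725244, 1674 bases away, did not pass either (log2 fold change -0.73, adjusted p = 0.130).

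Vhdl had a different order of libraries. It lies on the reverse strand of linkage group 13, at 4309579 to 4315590. Mir6001 lies inside it on the same strand, and reads in those 68 bases were not assigned to either. Levels were 2.02, 4.25, 0.818, 0.794 and 0.303 CPM in control replicates 3, 4, 5, 6 and 7, and 2.66, 0.144, 2.17, 0.613 and 0.280 CPM in orco_KO replicates 3, 5, 9, 11 and 12. The highest was control replicate 4 with 66 reads and the lowest orco_KO replicate 5 with 1 read.

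Between groups Vhdl did not pass the test (1.64 ± 1.59 against 1.17 ± 1.16 CPM; SD, n = 5; log2 fold change -0.40, SE 0.766, edgeR adjusted p = 0.791). The sign rested on control replicate 4, without which the log2 fold change was 0.41 (adjusted p = 0.796), and without control replicates 6 and 7 it was -1.0 (adjusted p = 0.50). As for all whole-tissue values here, fewer cells of a type and less RNA per cell cannot be told apart.

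Control replicate 4 and orco_KO replicates 3 and 9 were the top 3 libraries by CPM for both Hex110 and Vhdl, and all reads of Hex70c came from 2 of them. For both genes the lowest of the 3 was within counting error of the next library. Hex110 was at 1.48 CPM in control replicate 4 and 1.44 CPM in orco_KO replicate 5. Vhdl was at 2.17 CPM in orco_KO replicate 9 and 2.02 CPM in control replicate 3. Between Hex110 and Vhdl Pearson r was 0.43, and -0.0073 without the 2 farthest libraries. HEX70b had its highest CPM in orco_KO replicate 5 (0.719), and Hex70a was second highest there, also at 0.719 CPM. Each of these values came from 5 reads (95% Clopper-Pearson interval 0.233 to 1.68 CPM), too few to order the libraries. Control replicate 4 and orco_KO replicates 3 and 9 were not the deepest libraries, with 15246064, 9147504 and 18308425 counts. The 3 named genes whose log2 CPM over the 10 libraries was most like Vhdl, out of 336 compared, were Apid1 (Pearson r 0.81, Spearman rho 0.83), Obp19 (r 0.77) and Gpdh (r 0.74). Apid1 encodes apidaecin, an antimicrobial peptide released into the hemolymph, and was highest in control replicate 4 at 7.02 CPM, the other 9 libraries lying between 0.454 and 2.17 CPM.

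Obp19, an odorant binding protein gene, was also among the 3 most like Hex110 (r 0.81), between ACSF2 (r 0.83) and COX3 (r 0.80). It was at 89.1 CPM in control replicate 4, 96.9 CPM in orco_KO replicate 3 and 53.7 CPM in orco_KO replicate 9. The other 7 libraries lay between 2.50 and 7.79 CPM, so these 3 libraries stood out for Obp19, more clearly than for Hex110 or Vhdl. Since Obp19 was picked for its likeness to these 2 genes, it is no separate evidence for the 3 libraries. Obp19 itself did not pass between the groups (log2 fold change 0.67, adjusted p = 0.742). These likenesses are descriptions over libraries of both groups: without the 2 libraries farthest from the median of Hex110, r was 0.63 for ACSF2, 0.58 for Obp19 and 0.40 for COX3, and COX3 had few reads (0.337 to 2.43 CPM).

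Vg varied widely among the controls. It lies on the reverse strand of linkage group 4, at 5029485 to 5035661. Its levels were 98.0, 23.6, 38.2, 4.88 and 10.2 CPM in control replicates 3, 4, 5, 6 and 7, from 729, 366, 560, 129 and 302 reads. In orco_KO they were 38.3, 80.1, 32.9, 19.6 and 42.1 CPM in replicates 3, 5, 9, 11 and 12. The controls spanned 20.1-fold and enclosed every orco_KO library, which spanned 4.08-fold.

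The lowest Vg values were those of control replicates 6 and 7, the libraries that stood apart over all genes. With all libraries the groups did not differ beyond their spread (35.0 ± 37.5 against 42.6 ± 22.6 CPM; SD, n = 5; log2 fold change 0.30, SE 0.614, edgeR adjusted p = 0.805). The sign changed to -0.31 without control replicates 6 and 7 (adjusted p = 0.769), while without control replicate 3 the log2 fold change was 1.18 (adjusted p = 0.146). The direction of Vg thus depended on which libraries were used. LOC107964258 overlaps Vg by 160 bases on the opposite strand and had no read in any library. On the other side LOC408817, 1170 bases away, missed the threshold (log2 fold change 0.87, edgeR adjusted p = 0.0909).

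Libraries ordered by Vg were ordered almost the same way by Mblk-1. Mblk-1, a transcription factor gene of the ecdysone response known from the mushroom bodies of the bee brain, had the pattern most like Vg among 336 named genes (Pearson r 0.96, Spearman rho 0.94, and r 0.95 without the 2 libraries farthest from the median of Vg). Its levels were 12400, 7490, 8780, 4460 and 4170 CPM in control replicates 3 to 7, and between 6990 and 11900 CPM in orco_KO. Calpb (r 0.95) and the noncoding RNA gene Ancr-1 (r 0.94) came next. All 3 were lowest in control replicates 6 and 7, and none passed between the groups (adjusted p 0.353 to 0.669). Low values in these libraries were not particular to Vg and its likest genes. E75, of the hormone list below, was at 374 and 321 CPM there and at 1190 to 2190 CPM in the other controls. E74 of that list went the other way, with 659 and 653 CPM against 397 to 444 CPM.

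**Figure D3:**
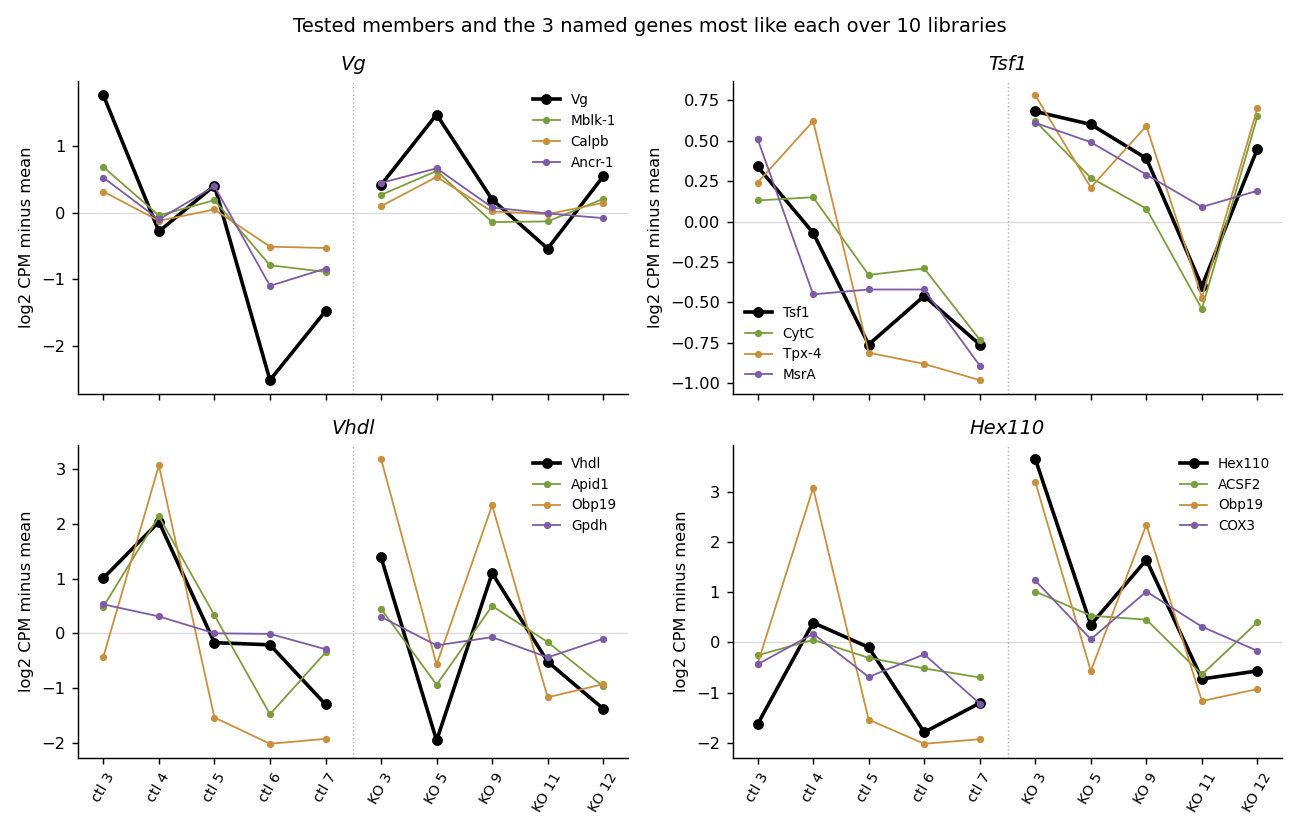
Log2 CPM minus its mean over the 10 libraries (vertical) for Vg, Tsf1, Vhdl and Hex110 (black) and the 3 named genes most like each (colored); libraries along the horizontal axis, controls left of the dotted line. Mblk-1 follows Vg with the lowest values in control replicates 6 and 7, and Obp19 is high in the 3 libraries (control 4, orco_KO 3 and 9) where Hex110 and Vhdl are highest. For Hex110 and Vhdl the lowest of these 3 is within counting error of the next library.

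Tsf1 was the steadiest member and higher in most orco_KO libraries. It lies on the forward strand of linkage group 15, at 7734777 to 7737849. Levels were 365, 274, 170, 209 and 170 CPM in control replicates 3, 4, 5, 6 and 7, and 463, 439, 377, 219 and 393 CPM in orco_KO replicates 3, 5, 9, 11 and 12. Each group varied about as much: the highest control was 2.15-fold above the lowest, and the highest orco_KO library 2.11-fold above the lowest. Only orco_KO replicate 11 lay within the control range, and the other 4 exceeded every control.

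Controls averaged 238 ± 83.2 CPM and orco_KO libraries 378 ± 95.2 CPM (n = 5 each, SD), 1.59-fold higher by the fit (log2 fold change 0.67, SE 0.247). It missed the threshold in the edgeR quasi-likelihood test (adjusted p = 0.0953, unadjusted p = 0.0169). Leaving out 1 library at a time brought the call in 2 of 10 cases, namely control replicate 3 (log2 fold change 0.91, adjusted p = 0.0159) and orco_KO replicate 11 (0.82, adjusted p = 0.0366). It was also made by DESeq2 (0.72, adjusted p = 0.0440) and with library totals in place of TMM (0.62, adjusted p = 0.0472). With TMM and edgeR, the log2 fold change fell to 0.48 without control replicates 6 and 7 (adjusted p = 0.327). The value was positive under every alternative run.

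The named genes most like Tsf1 were CytC, coding for the electron carrier cytochrome c (r 0.89), the thioredoxin peroxidase gene Tpx-4 (r 0.89) and MsrA, coding for a methionine sulfoxide reductase (r 0.88). Their log2 fold changes were 0.46, 0.64 and 0.64, and none passed (edgeR adjusted p 0.227, 0.236 and 0.146). Beside Tsf1, LOC113218519, which overlaps its end by 2 bases on the opposite strand, rose by 0.56 on the log2 scale (adjusted p = 0.0455), and LOC726250, 1052 bases on the other side, missed the threshold (log2 fold change 0.87, adjusted p = 0.0567). Farther from other members, edgeR called genes in both directions. LOC107964314, 17251 bases from Vg (-1.73, adjusted p = 0.00752), and LOC412722, 11085 bases from Hex70c (-0.59, adjusted p = 0.0454), fell. LOC408411, 28742 bases from Vhdl, rose (0.67, adjusted p = 0.00852). Most tested neighbours did not pass. Over all 9222 tested genes edgeR called 12.5%, 4.57% higher and 7.98% lower in orco_KO.

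Counted together, none of the 4 genes that could be tested passed the threshold in edgeR. Of the 9222 genes tested 12.5% did so, 4.57% higher and 7.98% lower in orco_KO. At an unadjusted p below 0.05 the count was 2, Hex110 and Tsf1, both higher, where 26.0% of all genes reached it, 11.7% higher and 14.3% lower. DESeq2 called Hex110 and Tsf1, both higher, where it called 17.4% of all genes, 8.46% higher and 8.94% lower. Groups did not separate fully for any of the 4 tested members, where 11.2% of tested genes had groups without overlap. The 3 genes left out for low counts are not part of these counts.

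Hex110, Vhdl and Vg varied more between libraries than most genes of their level. The biological coefficient of variation that edgeR estimated was 0.846 for Hex110, 0.792 for Vhdl and 0.652 for Vg, against 0.408, 0.439 and 0.255 on the trend of all genes at their level. These were higher than in 99.8%, 99.6% and 98.5% of tested genes. Tsf1, with 0.285 against a trend of 0.252, was near the middle of all tested genes.

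**Figure D4:**
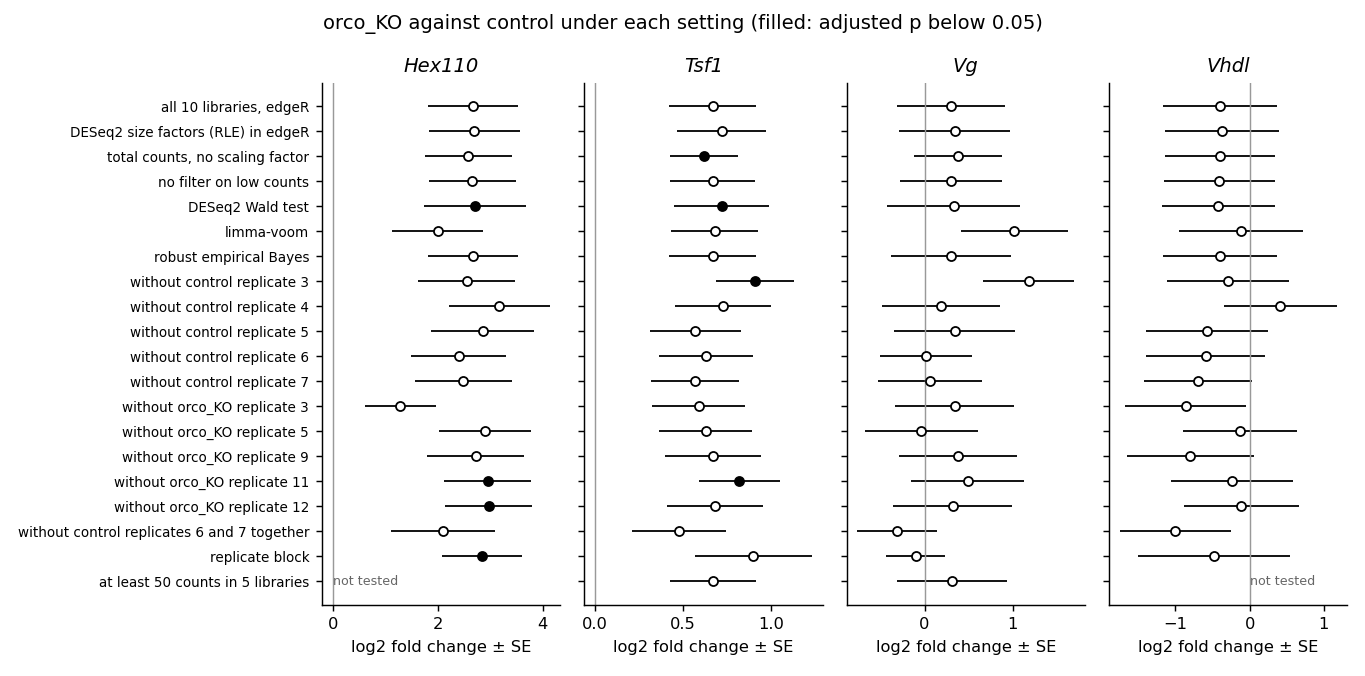
Log2 fold change of orco_KO against control with its standard error (horizontal; positive is higher in orco_KO, a scale per gene) for the 4 tested genes, with 1 line per setting; filled points have an adjusted p below 0.05. Hex110 and Tsf1 stay positive in every setting and pass in some, Vg changes sign without control replicates 6 and 7, and Vhdl changes sign without control replicate 4.

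Hormone and nutrition genes that act on storage proteins in other tissues were looked at next. The list held receptors and response factors of juvenile hormone and ecdysone, insulin signalling genes and metabolic peptides with their receptors. Of 49 symbols 19 matched a gene and 14 were tested. Br-c, an ecdysone-induced transcription factor gene, rose: controls averaged 11.4 ± 3.30 CPM and orco_KO libraries 20.2 ± 1.91 CPM (n = 5 each, SD), a log2 difference of 0.84 (SE 0.204, edgeR adjusted p = 0.0150). None fell, and 13 did not pass, where edgeR called 12.5% of all tested genes and 4.57% as higher. The list median was 0.19, beside -0.055 over all tested genes.

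Br-c lost its call without control replicates 6 and 7 (log2 fold change 0.58, adjusted p = 0.0706). The call was also lost with the replicate block, which held only 4 libraries (0.74, adjusted p = 0.187). A microRNA gene lies within Br-c on the same strand. Crzr, the receptor of the peptide corazonin, missed the threshold at a log2 difference of 1.02 (SE 0.393, adjusted p = 0.113). It was at 50.7 CPM in orco_KO replicate 11, without which the difference was 0.61 (adjusted p = 0.299), and it was 0.67 without control replicates 6 and 7 (adjusted p = 0.376) and -0.27 with the replicate block (adjusted p = 0.806). Jhe, the esterase that degrades juvenile hormone in the hemolymph, was at 139 ± 42.5 and 207 ± 49.6 CPM (log2 fold change 0.57, SE 0.226, adjusted p = 0.121), a call made without control replicate 4 (adjusted p = 0.0484), while without control replicates 6 and 7 the value was 0.38 (adjusted p = 0.361).

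Other hemolymph and fat body products did not pass either. Of 8 tested genes for immune peptides, recognition proteins and related secreted products, 9 having been matched, none passed in edgeR or DESeq2, and none had an unadjusted p below 0.05. Over all tested genes edgeR called 12.5%, DESeq2 called 17.4%, and 26.0% had an unadjusted p below 0.05. The median log2 fold change of these 8 was 0.27, beside -0.055 over all tested genes. PPO, coding for the prophenoloxidase of hemolymph and hemocytes, was at 3.49, 20.7, 7.22, 2.27 and 2.60 CPM in control replicates 3 to 7 and at 13.0, 63.1, 11.2, 1.43 and 23.4 CPM in orco_KO replicates 3, 5, 9, 11 and 12 (log2 fold change 1.61, SE 0.774, adjusted p = 0.205). It ranged most widely in orco_KO, and it was called without control replicate 4 (log2 fold change 2.53, adjusted p = 0.0493). The replicate block, which held only 4 libraries, also called it (2.63, adjusted p = 8.7e-09). Without orco_KO replicate 5 the value was 0.79 (adjusted p = 0.579), and without control replicates 6 and 7 it was 1.04 (adjusted p = 0.530). B-gluc1 and Pgrp-s2 had log2 fold changes of 0.35 and -0.42 (adjusted p 0.298 and 0.322).

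Markers of other cells that a dissected antenna may carry give the setting of these values. PPO was the only hemocyte gene matched of 18 symbols, with a range of 2.27 to 20.7 CPM in controls and 1.43 to 63.1 CPM in orco_KO. The only fat body gene matched of 25, the fatty acid binding protein gene Fabp, ranged from 100 to 309 CPM in controls and from 116 to 177 CPM in orco_KO, with its maximum in control replicate 3. Muscle markers, 7 of 19 matched, summed to 1980 to 4000 CPM in controls and 2640 to 6870 CPM in orco_KO.

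Among the muscle genes TpnT rose (log2 fold change 1.17, edgeR adjusted p = 0.0345) and Argk fell by 0.97 on the log2 scale (adjusted p = 0.00365). The other 5 did not pass, among them TpnCIIIa (0.98, adjusted p = 0.0594). Over all tested genes edgeR called 12.5%, 4.57% higher and 7.98% lower. The list median was 0.81, beside -0.055 over all tested genes. The Argk call was lost with the replicate block of only 4 libraries (-0.97, adjusted p = 0.155). The TpnT call was lost without control replicates 6 and 7 (adjusted p = 0.121) and when any single one of control replicates 3, 6 and 7 and orco_KO replicates 3, 5 and 12 was left out (adjusted p up to 0.0850). The part of muscle, fat body or hemocyte RNA in the values of Hex110, Tsf1 or Vg was not tested, and the single markers for fat body and hemocytes leave those cells hardly measured.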

How the data were processed

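Antennal RNA was sequenced from 5 control and 5 orco_KO libraries. The deposited values are whole-number counts of reads per gene. The aligner was STAR 2.7.3a (per the submitters' processing notes). Counting was done by featureCounts 2.0.0, per the file headers, over the whole gene span with strand setting 2. Introns therefore count, and reads in overlapping genes of the same strand or mapped to several places do not. The 5 virus features were left out, and 12331 of 12332 bee genes were matched to RefSeq by coordinates.

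From these counts, edgeR 4.0.16 in R 4.3.3 compared the groups without covariates (filterByExpr, TMM, quasi-likelihood test, Benjamini-Hochberg over 9222 genes, threshold 0.05; SE is the log2 fold change over the square root of F). Genes below the filter were compared by exact permutation of mean CPM with scipy 1.17.1. DESeq2 1.42.0, limma 3.58.1, other scalings and filters, left-out libraries and a replicate block were alternatives. Intervals (95% Clopper-Pearson) cover counting error only.

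The members, lists and settings were chosen with earlier results of these data known. Genes named are the members, the up to 3 genes of smallest p in each list, the 3 named genes (not LOC) of highest Pearson r in log2 CPM (prior count 2) with each tested member, and neighbours. An iron list matched no gene. E74, E75, Akhr and Def1 were named after their values were seen.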

Additional observations from a re-analysis of the deposited data

Results flagged for a closer look

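In some of the 14 gene and group combinations a single library lay far from the other 4 by Dixon's test at the 95% level, which by chance marks about 1 in 20. Hex110 was at 15.4 CPM in orco_KO replicate 3, the other orco_KO libraries lying between 0.613 and 3.71 CPM. Hex70a was at 2.38 CPM in control replicate 4, the other controls lying between 0 and 0.202 CPM. Hex70c was at 0.413 CPM in orco_KO replicate 9, from 8 reads, and at 0.0644 CPM in control replicate 4, from 1 read, with none in the other libraries of either group. For Hex70c the test carries no information, since any single count among libraries at 0 is marked.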

How the results depend on the processing

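Of the 4 tested genes, none was called higher with all libraries by edgeR. The count was 1 with library totals (Tsf1), 2 with DESeq2 (Hex110 and Tsf1), 1 with a replicate block (Hex110) and 0 to 2 when 1 library was left out, and none was called lower under any setting. The log2 fold change of Hex110 ranged from 1.29 to 3.17 and that of Tsf1 from 0.48 to 0.91 over their alternatives. Vg changed sign to -0.31 without control replicates 6 and 7, to -0.10 with the replicate block and to -0.037 without orco_KO replicate 5 (highest 1.18, without control replicate 3; limma-voom 1.02), and Vhdl ranged from -0.86 to 0.41 when 1 library was left out. Below the filter, the difference of orco_KO minus control ranged from -0.215 to 0.381 CPM for Hex70a and from -0.0129 to 0.0903 CPM for Hex70c with 1 library left out, changing sign for Hex70a without control replicate 4 or orco_KO replicate 12 (0.0222 CPM). The cause of these changes was not tested. Hormone and nutrition genes called higher numbered 2 with DESeq2 (E74, Br-c) and 1 to 2 with 1 library left out, and 1 was called lower without control replicates 6 and 7 (E75) and with the block (Akhr). Of other hemolymph products 1 was called higher with the block (PPO) and 0 to 1 with 1 library left out (Def1 or PPO). Muscle genes called higher numbered 3 with DESeq2, 6 with the block, 0 without control replicates 6 and 7 and 0 to 3 with 1 library left out, and the 1 called lower (Argk) became 0 with the block. The stricter filter of 50 counts in 5 libraries left out Hex110 and Vhdl.

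The block used the 4 libraries with numbers 3 and 5, which both groups share. Same-numbered libraries deviated together with correlations of 0.079 and 0.14, so the numbers are not taken as pairs.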

Other observations

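Of 16 matched genes for secreted products of the head glands and venom, 3 had enough reads to be tested, and Apamin, Mcdp and Pla2 had no read in any library. The 16 genes summed to 13.3 to 36.1 CPM in controls and 18.5 to 40.6 CPM in orco_KO. Mrjp9, a member of the major royal jelly protein family, averaged 10.4 ± 7.46 CPM over controls and 17.3 ± 7.96 CPM over orco_KO libraries (n = 5 each, SD), a log2 difference of 0.77 (edgeR adjusted p = 0.324), with its lowest values in control replicates 6 and 7 (2.84 and 4.79 CPM). Hbg3, an alpha-glucosidase gene, was at 6.74 ± 2.29 and 9.10 ± 3.31 CPM (adjusted p = 0.349), and AGLU2 at 3.43 ± 1.46 and 3.55 ± 0.870 CPM (adjusted p = 0.932). Mrjp1, the main royal jelly protein gene, had no read in any control library and 0.140 CPM in orco_KO replicate 12.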
